A study of Rattus norvegicus with 63 samples.

Results

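The livers compared here came from rats given nifedipine (Nif) or cefuroxime (CFX), and these were set directly against each other on 6 arrays, 3 per compound, out of 63 in the series. The arrays were chosen by their labels, Nif animals 1 to 3 and CFX animals 1 to 3, and no measured value entered the choice. Nif livers came from male Wistar Hanover rats given 3 mg/kg/day by gavage for 14 days, CFX livers from rats given 250 mg/kg/day for 14 days, and the 3 control set 2 livers (MC set 2) from the vehicle animals that the labels assign to both compounds. The labels name this vehicle methylcellulose, whereas the methods of the study name carboxymethyl cellulose for both compounds. The rats were 8 to 10 weeks old and received 5 ml/kg/day. Each dose group held 5 rats, of which 3 with at least some liver change on histopathology were put on arrays, so each replicate is its own animal, picked after its liver had been examined. The 9 livers of MC sets 1, 5 and 6 served as further methylcellulose controls.

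Nifedipine is a dihydropyridine that blocks L-type voltage-gated calcium channels and relaxes vascular smooth muscle. Cefuroxime is a cephalosporin antibiotic that acts on bacterial cell wall synthesis. Both were entered in the study as non-carcinogens, and the question answered by setting them side by side is how far the livers of rats on unrelated non-carcinogens differ from each other. In liver, nifedipine is cleared by cytochrome P450 enzymes of the CYP3A family, whereas cefuroxime leaves the body mostly unchanged in urine.

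The arrays were Affymetrix RAE230A, which read 15866 probe sets, each a group of short probes for 1 transcript or for several related ones. All levels below are log2 values after RMA, the authors' background correction, normalization and summary, and a log2 difference of 1 is a doubling. A probe set was called at a Benjamini-Hochberg adjusted p under 0.05 over all 15866 probe sets, from limma's moderated test with 1 mean for each of the 21 groups. Array medians ran between 7.421 and 7.51. Across probe sets the 3 Nif arrays correlated with each other at 0.9942 to 0.9953 and the 3 CFX arrays at 0.9935 to 0.9965, whereas Nif with CFX gave 0.9858 to 0.9912. CFX with MC set 2 gave 0.9936 to 0.9954, which lay within the span of arrays of a single group.

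Nif livers differed from CFX livers at 1324 probe sets, 8.34% of those tested, with 609 higher and 715 lower in Nif. Among these calls 3 higher and 24 lower probe sets passed a fold change of 2.5, the fold criterion of the study. The split depended on the scaling of the arrays, since centring each array on its median gave 810 higher and 608 lower. Leaving out 1 array lowered the count most for Nif replicate 2, to 752, and for CFX replicate 2, to 797. Counted by gene, with each of 10411 genes represented by its probe set of highest mean, 452 genes were higher in Nif (4.34%) and 279 were lower (2.68%). The median log2 difference over all genes was 0.005.

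The same Nif arrays differed from MC set 2 at 1342 probe sets (8.46%), with 600 higher and 742 lower, and this count fell to 631 without Nif replicate 2 and to 754 without MC set 2 replicate 10. CFX livers differed from MC set 2 at 1 probe set (0.0063%) in limma, while 552 had an unadjusted p under 0.05. The 1 call was a probe set of Abcc9, the sulphonylurea receptor subunit of vascular potassium channels, named after its value was seen. It had 5.88, 5.88 and 5.77 in CFX livers and 5.48, 5.57 and 5.45 in MC set 2 livers (0.35 ± 0.06, SE, adjusted p = 0.0271), and 0 probe sets were called without CFX replicate 1 or 2 or without MC set 2 replicate 10 or 12. MC set 2 itself differed from MC set 1 at 145 probe sets (0.914%), from MC set 5 at 431 (2.72%) and from MC set 6 at 309 (1.95%). The 3 comparisons among Nif, CFX and MC set 2 share arrays and are not independent of each other. The place of the arrays among the 12 methylcellulose livers went the same way as these counts. All 3 Nif livers lay outside the range of the 12 methylcellulose livers for 682 genes (6.55% of 10411), and all 3 CFX livers did so for 110 genes (1.06%). Of the 452 genes higher in Nif than in CFX, 151 had every Nif level above all 12 methylcellulose livers and 13 had every CFX level below them. Of the 279 lower genes, 118 had every Nif level below the 12 and 10 had every CFX level above them.

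One feature of the data touches every gene result that follows. Probe sets of the same gene often did not share a call between Nif and CFX. A probe set that was not called may still have moved the same way, so a missing call is not opposite movement. Of 1868 genes with more than 1 probe set, 413 had a probe set called lower in Nif, and in only 12 of them (2.91%) was every probe set called lower. A probe set called higher was found in 159 such genes, with every probe set higher in 8 (5.03%). In 29 genes, 5.34% of the 543 such genes with any call, 1 probe set was called higher and another lower. The share of probe sets called lower was 2.25% among the 8543 that were the only probe set of their gene and 4.66% among the 1868 that represented a gene with several. It was 15.1% among the 2372 other probe sets of those genes. The share called higher was 4.09%, 5.51% and 2.99% in the same order of classes. Genes called by their only probe set numbered 349 higher and 192 lower.

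**Figure D1:**
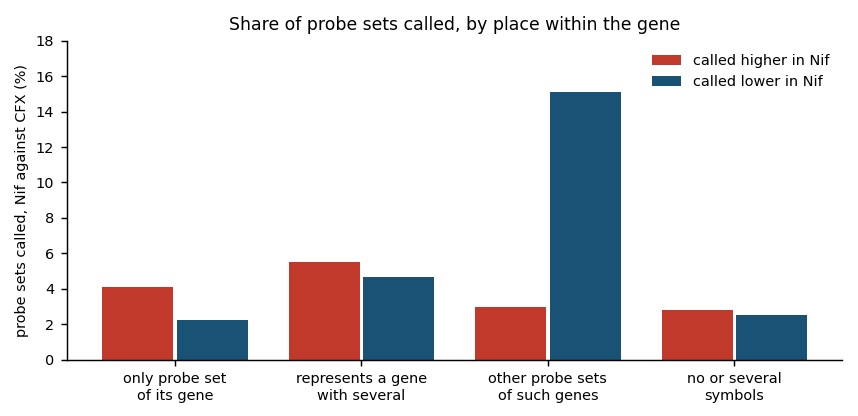
Share of probe sets called between Nif and CFX livers (y axis, percent), with probe sets called higher in Nif in red and lower in Nif in blue, by place of the probe set within its gene (x axis). The share called lower was 15.1% for the other probe sets of genes with several, against 2.25% for probe sets that are the only one of their gene.

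Gnb1, a beta subunit of heterotrimeric G proteins, spanned the widest interval of the 29 genes. Its representing probe set had levels of 8.84, 8.57 and 8.45 in Nif livers and 9.97, 9.70 and 9.85 in CFX livers, a difference of -1.22 ± 0.12 (SE, adjusted p = 4.51e-11). A second probe set of Gnb1 had 9.25, 9.17 and 8.90 in Nif and 8.16, 8.45 and 8.57 in CFX livers, a difference of 0.71 ± 0.12 (adjusted p = 1.29e-05). The Nif and CFX livers did not overlap on either probe set, and the order was opposite. Aplp2, a relative of the amyloid precursor protein, gave -1.39 and 0.38, Gdi2, a regulator of Rab GTPases, gave -1.03 and 0.32, and Top1, a DNA topoisomerase, gave -0.64 and 0.57 on their 2 probe sets. Among the others of the 29 were Mbnl2, a splicing regulator (-0.74 and 0.78), Masp1, a protease of the lectin pathway of complement (-0.96 and 0.50), and Vdac1, a channel of the outer mitochondrial membrane (-0.73 and 0.23).

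**Figure D2:**
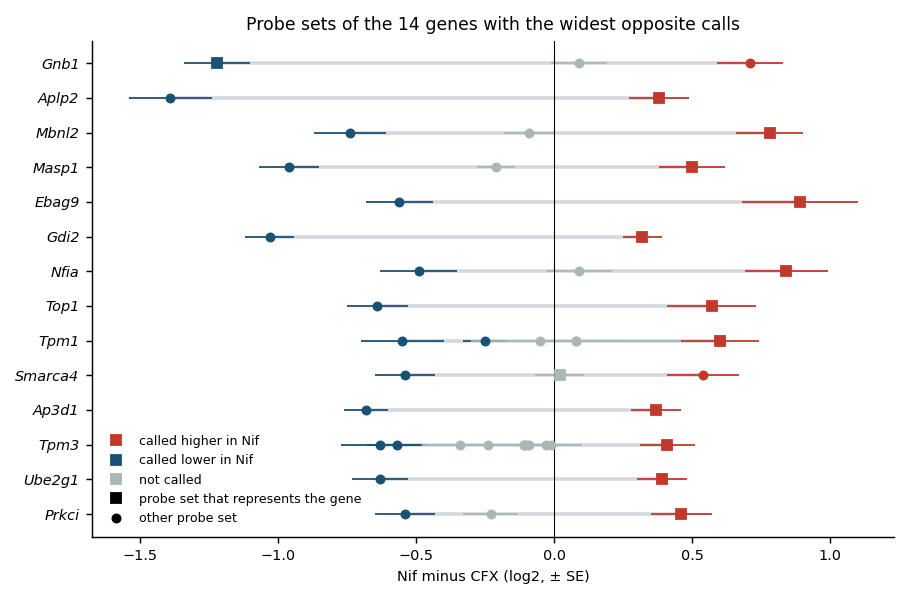
Difference between Nif and CFX livers (x axis, log2, Nif minus CFX, bars ± SE) for every probe set of the 14 genes with the widest opposite calls. Squares are the probe sets that represent the gene and circles the other probe sets, in red where called higher in Nif, blue where called lower and grey where not called; Gnb1 spans -1.22 to 0.71.

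The same count in the other contrasts of the series was lower. Among the contrasts of 14 other compounds with their own control sets, the share of genes with any call that held opposite calls ran between 0% and 3.01%, against 5.34% for Nif with CFX and 4.22% for Nif with MC set 2. The contrasts at 0% held few genes with any call, from 1 for CFX to 101 for dimethylnitrosamine, while ethionine, at 3.01%, held 665. Where a contrast of these 14 compounds had at least 500 calls, the share called lower among the other probe sets was 0.538 to 1.6 times that among the only probe sets. Probe sets whose annotation gives a RefSeq mRNA accession were called lower in Nif in 7.64% and higher in 2.26%, while those with another accession were called lower in 4.16% and higher in 4.57%. Whether the position of the probes along each transcript, the condition of the RNA or a change in transcript isoforms goes with this pattern was not tested. For genes whose levels are given per liver below, the values of any further probe set stand beside them, and the others of these genes have 1 probe set. Genes given below by a difference alone can have further probe sets whose values are not listed. Among them, the further probe sets of Eci1, Hnrnpdl, Srsf2, Cacnb2 and Itpr2 were not called, and that of Srrm2 was called higher.

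Among the 14 genes with the largest lower values were transcription factors of the hepatocyte. Cebpa, which encodes C/EBPα, a factor that drives genes of metabolism in mature hepatocytes, had levels of 7.71, 6.99 and 7.59 in Nif livers, against 9.15, 9.01 and 9.0 in CFX livers and 9.22, 9.27 and 8.88 in MC set 2 livers. All Nif levels lay below those of the 60 arrays of other groups in the series, and CFX overlapped MC set 2. The difference between Nif and CFX was -1.62 ± 0.16 (SE, adjusted p = 7.8e-11), a 3.08-fold lower level, and it rests on the only probe set of this gene. Hnf4a, a nuclear receptor that sustains the hepatocyte programme, had 8.35, 8.18 and 8.38 in Nif, 9.49, 9.60 and 9.48 in CFX and 9.66, 9.65 and 9.29 in MC set 2 livers. Its difference was -1.22 ± 0.12 (adjusted p = 8.47e-11), and its second probe set was lower as well, by a smaller amount (-0.53 ± 0.11, adjusted p = 0.000454). The Nif group ranked lowest of the 21 groups for Cebpa and for the representing probe set of Hnf4a, and second lowest for the second probe set of Hnf4a. On the representing probe set of Hnf4a the 12 methylcellulose livers spread widely, between 8.52 and 9.66. Livers of the ethionine group, at 8.30 to 8.78, overlapped the Nif livers there. On the second probe set the Nif livers, at 8.44 to 8.53, overlapped the methylcellulose livers, whose lowest level was 8.49.

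The promoters of these factors are given because both fell in Nif livers relative to CFX livers, together with that of Col1a2, a collagen gene that was higher and is described further on. Sequences of 300 bases, from 250 before to 50 after the RefSeq start, were taken from RefSeq on build GRCr8, where 65 of the 73 genes named by rule had an entry. Capitals mark TATAAA, the core of the TATA box, and CCAAT, the box bound by NF-Y, searched on both strands, so that CCAAT on the other strand reads ATTGG. Of all 33469 promoters of this length in the table, 14.2% hold TATAAA and 37.5% hold CCAAT.
Cebpa, chromosome 1, 96896334 to 96896633, plus strand: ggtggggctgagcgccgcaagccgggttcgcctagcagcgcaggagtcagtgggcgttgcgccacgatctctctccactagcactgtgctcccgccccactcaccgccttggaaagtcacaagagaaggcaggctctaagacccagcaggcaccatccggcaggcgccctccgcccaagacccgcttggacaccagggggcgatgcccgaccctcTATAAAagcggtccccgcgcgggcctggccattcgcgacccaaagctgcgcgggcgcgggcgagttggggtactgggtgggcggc
Hnf4a, chromosome 3, 172605970 to 172606269, plus strand: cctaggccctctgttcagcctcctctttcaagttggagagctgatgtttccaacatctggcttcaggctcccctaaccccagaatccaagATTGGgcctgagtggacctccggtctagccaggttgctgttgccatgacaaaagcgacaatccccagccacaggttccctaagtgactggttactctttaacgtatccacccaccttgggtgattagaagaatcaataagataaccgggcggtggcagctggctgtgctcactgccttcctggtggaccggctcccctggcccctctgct
Col1a2, chromosome 4, 33518307 to 33518606, plus strand: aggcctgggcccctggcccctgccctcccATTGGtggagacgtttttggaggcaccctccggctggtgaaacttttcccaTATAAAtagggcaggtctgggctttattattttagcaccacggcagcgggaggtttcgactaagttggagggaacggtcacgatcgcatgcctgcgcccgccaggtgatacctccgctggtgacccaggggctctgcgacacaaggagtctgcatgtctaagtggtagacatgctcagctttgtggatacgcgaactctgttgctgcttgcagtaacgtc
TATAAA begins 35 bases before the start in Cebpa and 170 bases before it in Col1a2, and CCAAT lies on the other strand in Hnf4a and Col1a2. These matches are descriptions of the letters and say nothing of binding.

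Most other hepatocyte markers were not called. Of 18 measured markers, 3 were called lower (Cebpa, Hnf4a and Cps1) and 0 higher (2.68% of all genes were lower), with a median difference of -0.04 beside 0.005 over all genes. Cps1, the mitochondrial enzyme that starts the urea cycle, had 12.70, 12.43 and 12.59 in Nif livers, against 13.37, 13.21 and 13.36 in CFX livers (-0.74 ± 0.12, adjusted p = 7.8e-06), but its second probe set gave 0.11 (adjusted p = 0.627). Albumin (Alb) gave 0.03 ± 0.04, transthyretin (Ttr) -0.05 ± 0.05 and the P450 enzyme Cyp2c11 0.01 ± 0.14, none of them called. Averaged over the list and set relative to the 12 methylcellulose livers, the level was -0.21 to -0.08 in Nif livers, 0.054 to 0.172 in CFX livers and -0.076 to 0.081 in the methylcellulose livers. Without the 3 called members the remaining 15 gave -0.023 to 0.056 in Nif livers, 0.013 to 0.142 in CFX livers and -0.076 to 0.051 in the methylcellulose livers. The 3 were left out because this same comparison called them lower, so a rise of the Nif mean was bound to follow. The means of the remaining 15 overlapped between Nif and CFX livers, with a median difference of 0.01.

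The 14 lowest genes also held Acadsb, Ppp1r3b, Gpam and Acox3, which encode proteins of amino acid, glycogen and fat metabolism. Acadsb, an acyl-CoA dehydrogenase for short branched chains in isoleucine breakdown, had 6.23, 5.47 and 6.22 in Nif livers, against 8.47, 8.10 and 8.49 in CFX livers and 8.39, 8.25 and 7.29 in MC set 2 livers. Its difference of -2.38 ± 0.21 (SE, adjusted p = 2.49e-12) was a 5.21-fold lower level, and the 12 methylcellulose livers spread widely for this gene, between 6.66 and 8.39. Ppp1r3b, which anchors protein phosphatase 1 to glycogen, had 6.48, 5.85 and 6.12 in Nif, 8.32, 8.14 and 8.21 in CFX and 7.59, 7.52 and 7.60 in MC set 2 livers. This gene was outside the range of the 12 methylcellulose livers (6.55 to 8.12) on both sides, below in all Nif livers and above in all CFX livers. Its difference between Nif and CFX was -2.08 ± 0.20 (adjusted p = 5.17e-11), made up of -1.42 between Nif and MC set 2 (adjusted p = 1.17e-06) and of 0.66 between CFX and MC set 2, which was not called (adjusted p = 1).

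Gpam, the mitochondrial acyltransferase that begins triglyceride synthesis, had 6.59, 6.42 and 6.49 in Nif livers, against 7.77, 7.60 and 7.92 in CFX livers (-1.26 ± 0.14, adjusted p = 4.72e-09). Acox3, a peroxisomal oxidase of branched fatty acids, had 7.74, 7.70 and 7.68 in Nif livers, against 8.78, 8.75 and 9.10 in CFX livers (-1.17 ± 0.11, adjusted p = 9.65e-12). Acacb, the acetyl-CoA carboxylase that restrains mitochondrial fat oxidation, was lower by less, with 5.67, 5.71 and 5.69 in Nif and 6.21, 6.68 and 6.39 in CFX livers (-0.74 ± 0.16, adjusted p = 0.00141). Each of these genes has 1 probe set, and in none did Nif and CFX livers overlap. Of the 23 measured genes of fatty acid and triglyceride synthesis, Gpam and Acacb were called lower and 0 higher (2.68% of all genes were lower), with a median of -0.22. The list as a whole scattered between animals, at -0.43 to 0.029 in Nif and -0.046 to 0.272 in CFX livers. Among 36 PPARα targets and genes of fatty acid oxidation 3 were higher and 1 lower with a median of 0.06, where 4.34% of all genes were higher and 2.68% lower. Cidea was called in that list and is described further on, whereas Eci1 (0.59), Acadvl (0.40) and Ppara (-0.30) lost their calls without Nif replicate 2 (adjusted p = 0.0522, 0.121 and 0.133), and 1 to 3 of the 4 calls were kept with 1 array left out. The 19 genes of cholesterol synthesis and uptake gave 0 calls.

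Secreted proteins and trafficking were also among the lower genes. Mug1, a murinoglobulin that traps proteases in rodent plasma, had 10.36, 10.30 and 10.64 in Nif, 12.32, 12.03 and 12.35 in CFX and 12.36, 12.05 and 11.88 in MC set 2 livers (-1.80 ± 0.19, adjusted p = 8.64e-10). The lowest methylcellulose liver had 10.37 for Mug1, so the Nif liver at 10.64 lay inside the vehicle range and those at 10.36 and 10.30 just below it. Lman1, the ERGIC-53 receptor that carries clotting factors out of the endoplasmic reticulum, had 7.81, 7.77 and 7.69 in Nif, 9.36, 9.04 and 9.17 in CFX and 8.79, 8.90 and 8.97 in MC set 2 livers. For Lman1 (-1.43 ± 0.12, adjusted p = 2.83e-13) every Nif level was below the 60 other arrays. Met, the receptor of hepatocyte growth factor, differed by -1.27 ± 0.13 (adjusted p = 2.76e-10), and Inhbc, the liver activin subunit βC, by -1.29 ± 0.17 (adjusted p = 1.14e-07). For both, the highest Nif liver reached into the vehicle range. It had 5.81 for Met, where the lowest methylcellulose liver had 5.77, and 7.81 for Inhbc, where the lowest had 7.69. Crp, C-reactive protein, was lower by little, with 13.75, 13.67 and 13.84 in Nif livers and 14.14, 14.23 and 14.11 in CFX livers (-0.40 ± 0.07, adjusted p = 1.29e-05). Of 26 acute phase genes 2 were lower (Crp and Cp) and 0 higher, beside 2.68% of all genes lower. Cp, ceruloplasmin, gave -0.39 on its representing probe set and -0.01 and 0.28 on 2 others that were not called, and its call was lost without Nif replicate 3 (adjusted p = 0.0785) or CFX replicate 1 (adjusted p = 0.0539). Rnf4, a ubiquitin ligase for SUMO chains, was -1.19 ± 0.12 on its representing probe set, -0.81 on another and -0.01 on the last.

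A1cf, the RNA-binding partner of the apolipoprotein B editing enzyme, lay apart from MC set 2 in both groups, below it in Nif and above it in CFX livers. Its levels were 7.77, 7.94 and 7.71 in Nif, 8.78, 9.26 and 9.24 in CFX and 8.16, 8.25 and 8.30 in MC set 2 livers. The 12 methylcellulose livers spread between 7.80 and 8.78. The Nif liver at 7.94 lay inside that range, and the CFX liver at 8.78 lay at its upper end. The difference between Nif and CFX was -1.29 ± 0.20 (adjusted p = 6.33e-06), with -0.43 between Nif and MC set 2 and 0.86 between CFX and MC set 2, neither of which was called (adjusted p = 0.186 and 0.318). In bile acid synthesis and transport 3 of 24 genes were lower and 0 higher (2.68% of all genes were lower), each with the Nif livers below and the CFX livers above MC set 2 on average. Nr5a2, the nuclear receptor LRH-1 that supports bile acid synthesis, had 6.70, 6.66 and 6.67 in Nif, 7.14, 7.20 and 7.15 in CFX and 6.93, 7.06 and 6.85 in MC set 2 livers (-0.49 ± 0.10, adjusted p = 0.00044). Abcg5 and Abcg8, the half-transporters that together export sterols into bile, differed by -0.91 ± 0.25 (adjusted p = 0.0137) and -0.63 ± 0.21 (adjusted p = 0.0483). None of the 3 was called between Nif and MC set 2 or between CFX and MC set 2. Abcg5 was no longer called without Nif replicate 1 (adjusted p = 0.108) or CFX replicate 3 (adjusted p = 0.0859), and Abcg8 lost its call without any one of Nif replicates 1, 2 and 3 (adjusted p = 0.126, 0.0964 and 0.102) or CFX replicates 2 and 3 (adjusted p = 0.167 and 0.153).

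The largest lower value belonged to RT1-CE10, a class I gene of the rat major histocompatibility complex. Its levels were 8.82, 8.32 and 8.43 in Nif, 11.40, 11.48 and 11.56 in CFX and 11.68, 8.61 and 11.62 in MC set 2 livers. Over all 63 arrays the values fell into 2 separate ranges, with 17 arrays at or below 9.67 and 46 at or above 10.91, and 11 of the 21 groups held animals of both ranges. The difference of -2.96 ± 0.90 (adjusted p = 0.0282) was lost when any one array was left out, with an adjusted p between 0.0536 without Nif replicate 1 and 0.102 without Nif replicate 2. Class I genes of the rat are polymorphic and closely related to each other, and this probe set is of the type that can read several of them. Of 29 genes of the interferon response and antigen presentation, 0 were called, beside 4.34% of all genes higher and 2.68% lower. Without Nif replicate 3, 2 of the 29 were called higher.

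**Figure D3:**
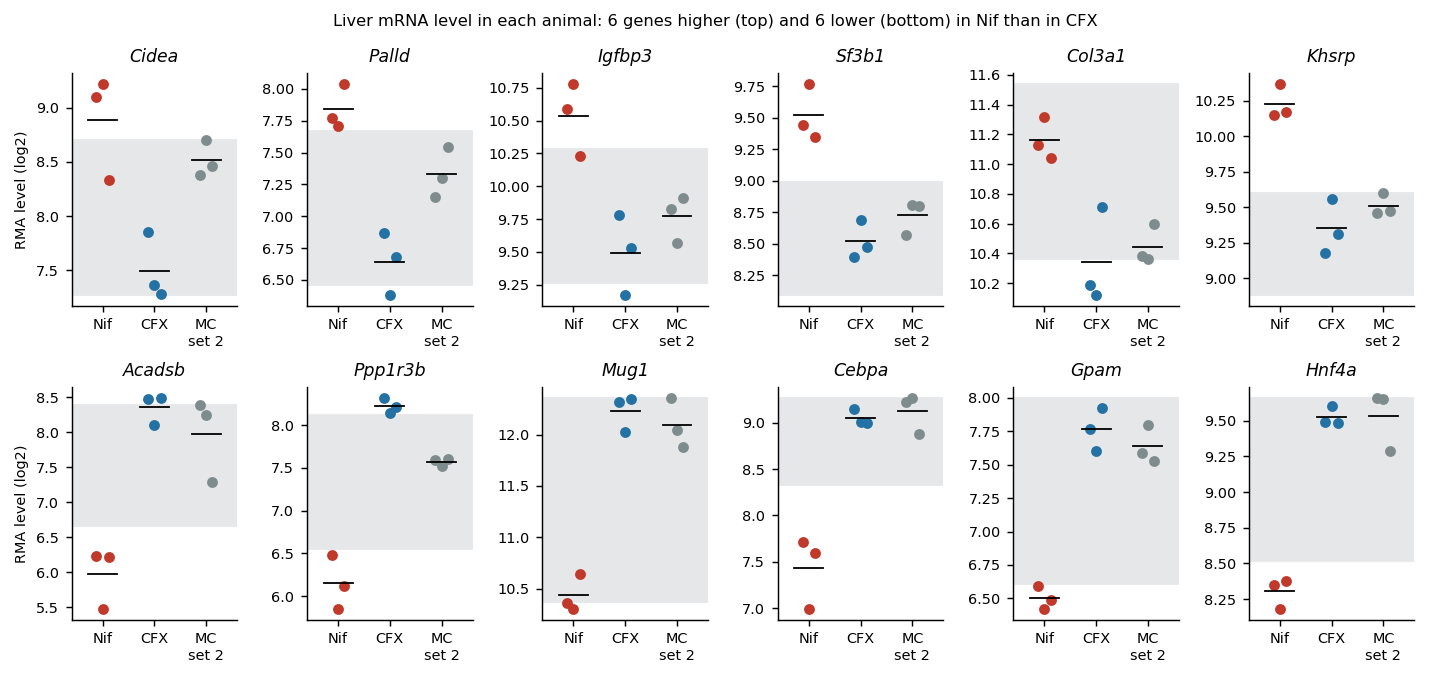
RMA level (y axis, log2) in each Nif, CFX and MC set 2 liver (points), with group means (bars) and the range of the 12 methylcellulose livers (grey band), for 6 genes higher and 6 lower in Nif than in CFX. Cebpa sits at 6.99 to 7.71 in Nif livers, below every CFX and every methylcellulose liver, while Cidea and Col3a1 in Nif livers reach into the band.

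Among the 14 highest genes named by rule, none with overlap of Nif and CFX livers, the largest difference was 2.61-fold. This was smaller than the largest among the 14 lowest. Cidea, a lipid droplet protein that promotes fat storage, had 9.10, 9.22 and 8.33 in Nif, 7.85, 7.36 and 7.28 in CFX and 8.38, 8.70 and 8.46 in MC set 2 livers. Nif overlapped MC set 2, and all CFX livers lay below it. The difference was 1.38 ± 0.31 between Nif and CFX (SE, adjusted p = 0.00183), 0.37 between Nif and MC set 2 (adjusted p = 0.52) and -1.02 between CFX and MC set 2 (adjusted p = 1). Palld, which encodes the actin-binding protein palladin, gave the same order of group means (1.20 ± 0.24, adjusted p = 0.000496). Its levels were 7.77, 7.71 and 8.04 in Nif, 6.87, 6.38 and 6.68 in CFX and 7.15, 7.30 and 7.54 in MC set 2 livers. Unlike for Cidea, every Nif level of Palld lay above the highest of the 12 methylcellulose livers (7.67). Ppp1r14a, the myosin phosphatase inhibitor CPI-17 of smooth muscle, had 8.02, 8.02 and 7.77 in Nif livers, against 7.22, 6.89 and 7.03 in CFX livers, where each was below the lowest of the 12 methylcellulose livers (7.30).

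Like Palld, other higher genes stood apart from all 12 methylcellulose livers. Sf3b1, a core subunit of the spliceosome, had 9.44, 9.77 and 9.35 in Nif, 8.39, 8.69 and 8.47 in CFX and 8.57, 8.81 and 8.80 in MC set 2 livers. Its difference of 1.00 ± 0.13 (adjusted p = 1.37e-07) came with 0.27 on a second probe set, which was not called (adjusted p = 0.264). Khsrp, which binds AU-rich RNA and speeds its decay, had 10.15, 10.37 and 10.17 in Nif livers, against 9.18, 9.56 and 9.31 in CFX livers (0.87 ± 0.13, adjusted p = 1.95e-06), yet its 2 other probe sets gave -0.06 and 0.05. C11h21orf91 reached 8.99, 8.94 and 8.85 in Nif and 8.15, 7.70 and 7.83 in CFX livers. For Sf3b1, Khsrp and C11h21orf91 every Nif level exceeded the 60 other arrays. Of 38 splicing factors and Clk kinases 3 were higher and 0 lower, with a median of 0.14, where 4.34% of all genes were higher. These were Srrm2 (0.64), Hnrnpdl (0.35) and Srsf2 (0.32), which all lost their calls without Nif replicate 2 (adjusted p = 0.191, 0.249 and 0.0766) and without CFX replicate 1 (adjusted p = 0.128, 0.139 and 0.198) or CFX replicate 2 (adjusted p = 0.178, 0.0567 and 0.0596). Without Nif replicate 1, Hnrnpdl alone kept its call, and the mean of all probe sets of a gene left 1 call in the list. Nfia, a transcription factor of the NFI family, was higher on 1 of 3 probe sets (0.84 ± 0.15, adjusted p = 3.68e-05) and lower on another (-0.49, adjusted p = 0.0207).

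Growth factor and protease regulation was represented by Igfbp3 and Serpine2. Igfbp3, the main carrier of insulin-like growth factors in blood, had 10.59, 10.78 and 10.23 in Nif, 9.78, 9.17 and 9.53 in CFX and 9.83, 9.57 and 9.91 in MC set 2 livers (1.04 ± 0.21, adjusted p = 0.000502). Its second probe set gave 0.43 (adjusted p = 0.171). Serpine2, the protease inhibitor nexin-1, had 8.57, 8.17 and 8.62 in Nif livers and 7.78, 7.14 and 7.65 in CFX livers (0.93 ± 0.20, adjusted p = 0.001). Adam15, a membrane metalloprotease, and Ebag9 were higher by 0.86 ± 0.19 and 0.89 ± 0.21, but Adam15 lost its call without Nif replicate 2 (adjusted p = 0.0588) and Ebag9 without CFX replicate 2 (adjusted p = 0.0623). The second probe set of Ebag9 was lower in Nif (-0.56 ± 0.12, adjusted p = 0.00115).

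Some markers of stellate cells and extracellular matrix, 7 of 25, were higher in Nif than in CFX livers. Hepatic stellate cells store vitamin A and make the collagens of the liver. None of the 25 was called lower, 4.34% of all genes were higher, and the median difference was 0.25 beside 0.005. Col3a1, a fibrillar collagen, had 11.13, 11.32 and 11.04 in Nif, 10.19, 10.12 and 10.71 in CFX and 10.38, 10.36 and 10.60 in MC set 2 livers (0.82 ± 0.15, adjusted p = 9.03e-05). Col1a2, a chain of type I collagen, had 8.42, 8.59 and 8.12 in Nif, 7.36, 7.38 and 7.84 in CFX and 7.86, 8.03 and 8.00 in MC set 2 livers (0.85 ± 0.20, adjusted p = 0.0034), and its second probe set was also higher (0.74, adjusted p = 0.0161). Reln, which encodes reelin and is made by stellate cells in liver, was higher on both of its probe sets (0.69, adjusted p = 0.00127, and 0.51, adjusted p = 0.0024). The other called members were Col4a2 (0.53), Pdgfra (0.50), Bgn (0.47) and Col6a1 (0.40). Col14a1, a collagen outside the list, was higher by 0.85 ± 0.13 (adjusted p = 6.69e-06), with 0.15 and no call on its second probe set. The 18 members not called lay between -0.25 for fibronectin (Fn1) and 0.57 for the retinol acyltransferase Lrat, among them the type I collagen chain Col1a1 (0.05 ± 0.12) and the smooth muscle actin Acta2 (0.05 ± 0.13).

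How far this list stood apart depended on the vehicle livers it was set against. Averaged over the list, the level relative to the 12 methylcellulose livers was 0.183, 0.304 and 0.047 in Nif livers, -0.11, -0.099 and -0.077 in CFX livers and -0.094, -0.136 and -0.055 in MC set 2 livers. MC set 1 livers had 0.252, 0.175 and 0.222, which overlapped the Nif livers. Against MC sets 2, 5 and 6 the number of list members higher in Nif was 7, 8 and 8, where 4.26%, 6.91% and 12.5% of all genes were higher. Against MC set 1 it was 1, with a median of 0 and 2.92% of all genes higher. CFX livers had 6 of the 25 members lower than MC set 1, beside 0.749% of all genes, and 0 lower than MC set 2. In bulk liver a change in the number of cells of a type and a change in RNA per cell cannot be told apart. Of the other cell types, 12 macrophage markers gave 0 calls with a median of 0.27, 10 endothelial markers 0 calls with a median of 0.17, and 16 lymphocyte markers 0 calls with a median of -0.05. Without Nif replicate 3, however, 3 of the 12 macrophage markers were called higher and 1 of the 10 endothelial markers lower. In that setting 539 of 15866 probe sets were higher and 654 lower. With any other array left out, none of these markers was called. The mean of the macrophage list lay between -0.255 and 0.225 in Nif livers, inside the range of the 12 methylcellulose livers (-0.356 to 0.482).

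**Figure D4:**
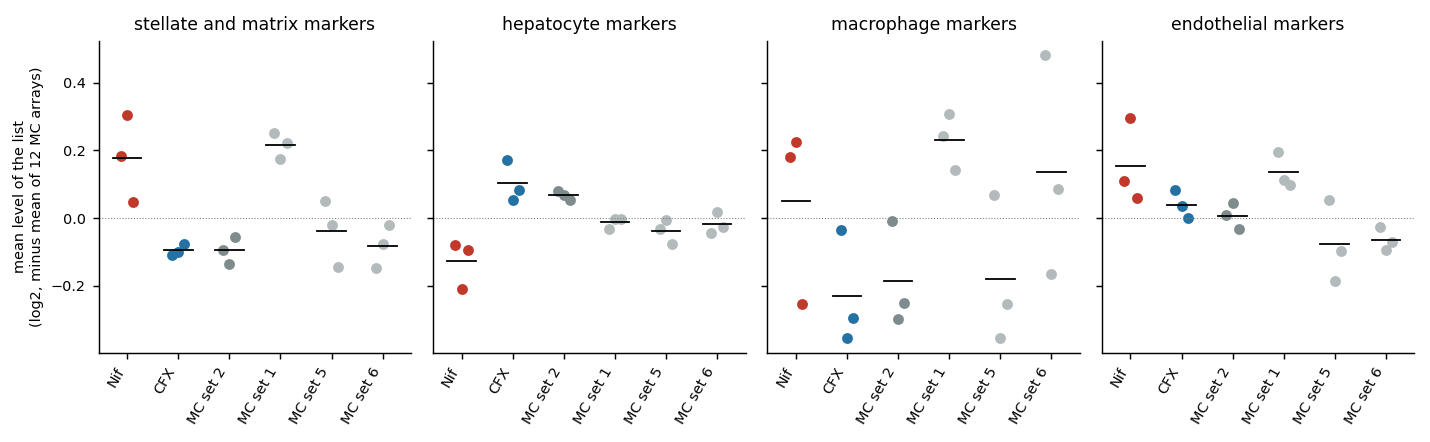
Mean level of 4 marker lists in each liver (y axis, log2, relative to the mean of the 12 methylcellulose livers) for Nif, CFX and MC sets 2, 1, 5 and 6 (x axis), with points for animals and bars for group means. For stellate and matrix markers the Nif livers (0.047 to 0.304) lie above the CFX livers (-0.11 to -0.077) and overlap MC set 1 (0.175 to 0.252).

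Nifedipine acts on calcium channels, and 3 of the 48 measured calcium channels, pumps and signalling genes were called, 1 higher and 2 lower with a median of -0.03, beside 4.34% of all genes higher and 2.68% lower. The lower members, the channel subunit Cacnb2 (-0.34) and the inositol trisphosphate receptor Itpr2 (-0.27), kept their calls with Nif replicate 3 left out and lost them without any one of the other arrays of both groups, with an adjusted p up to 0.175 and 0.205. Atp2b1, the plasma membrane calcium pump, had 9.67, 9.65 and 9.61 in Nif, 9.07, 8.96 and 9.14 in CFX and 9.14, 9.10 and 9.15 in MC set 2 livers (0.59 ± 0.09, adjusted p = 4.25e-06), with every Nif level above the 60 other arrays. The L-type channel subunits Cacna1c (-0.08 ± 0.10), Cacna1d (-0.13 ± 0.09) and Cacna1s (0.09 ± 0.07) were not called. Of 21 genes of the renin-angiotensin system and vascular tone, 2 were higher and 0 lower (4.34% of all genes were higher), and both encode soluble guanylate cyclase, the receptor of nitric oxide. Gucy1b1 had 6.29, 6.15 and 6.10 in Nif and 5.71, 5.49 and 5.84 in CFX livers (0.50 ± 0.11, adjusted p = 0.00181), and its second probe set was higher too (0.38, adjusted p = 0.0017). Both probe sets of Gucy1b1 were dim, with a mean over all arrays below 6 log2. Gucy1a1 had 8.82, 8.98 and 8.56 in Nif and 8.13, 7.78 and 8.26 in CFX livers (0.73 ± 0.18, adjusted p = 0.00446). Its second probe set gave -0.11, and the call was lost without Nif replicate 2 (adjusted p = 0.0539) or CFX replicate 2 (adjusted p = 0.0708).

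Of 23 targets of the receptors PXR and CAR, which govern drug metabolism, 2 were higher and 1 lower with a median of 0.09, beside 4.34% of all genes higher and 2.68% lower. With 1 array left out, 0 to 3 of these calls were kept, 0 of them without CFX replicate 2. The lower member was Nr1i2, which encodes PXR itself (-0.38, adjusted p = 0.0311), and its call was lost without Nif replicates 2 or 3 (adjusted p = 0.156 and 0.0802) or CFX replicates 1 or 2 (adjusted p = 0.147 and 0.0586). Ugt2b1, a glucuronosyltransferase, had 10.89, 11.52 and 11.75 in Nif, 10.54, 10.19 and 10.71 in CFX and 11.36, 11.56 and 10.49 in MC set 2 livers (0.90 ± 0.30, adjusted p = 0.0471). It kept its call without Nif replicate 1 and lost it without any one of the other arrays of both groups, with an adjusted p of 0.17 and 0.186 without Nif replicates 2 and 3 and of 0.0875, 0.224 and 0.0553 without CFX replicates 1, 2 and 3. Cyp3a23-3a1, a CYP3A enzyme induced through PXR, had 12.59, 12.69 and 12.63 in Nif, 12.50, 11.97 and 11.87 in CFX and 12.73, 12.65 and 12.51 in MC set 2 livers. Nif and MC set 2 livers overlapped for this enzyme, with a difference of 0.01 (adjusted p = 0.972), and all 3 CFX livers were lower than every Nif and MC set 2 liver, CFX replicate 1 by the least. The difference between Nif and CFX was 0.53 ± 0.13 (adjusted p = 0.00616), and the call was lost without CFX replicate 2 (adjusted p = 0.0637) or CFX replicate 3 (adjusted p = 0.0855). The 7 AHR targets gave 0 calls.

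Of the stress and defence lists, NRF2 and glutathione genes had 0 higher and 1 lower of 30, beside 2.68% of all genes lower. This was Gsr, glutathione reductase, with 7.94, 7.68 and 7.86 in Nif, 8.47, 8.38 and 8.60 in CFX and 8.47, 8.77 and 8.51 in MC set 2 livers (-0.66 ± 0.13, adjusted p = 0.000454), and all Nif levels were below the 60 other arrays. P53 targets (13 measured), heat shock proteins (17), the circadian clock (24) and immediate early genes (28) had 0 calls each. Oxidative phosphorylation had 5 higher and 3 lower of 42 with a median of 0.12, where 4.34% of all genes were higher and 2.68% lower. Without Nif replicate 2 the count was 0 higher and 2 lower, without CFX replicate 2 or 3 it was 1 higher and 3 lower, and without Nif replicate 1 or CFX replicate 1 it was 3 higher and 2 lower. Proteasome subunits had 2 higher (Psme2 and Psmc2) and 0 lower of 28 with a median of 0.12, and both calls were lost when any one of the 6 arrays was left out, with an adjusted p between 0.0505 and 0.11. Complement and coagulation genes had 4 higher and 2 lower of 23 with a median of 0.01, and 1 to 4 of these 6 calls were kept with 1 array left out. Cytosolic ribosomal proteins had 1 higher and 2 lower of 31. The higher one, Rpl13a (0.44), lost its call without Nif replicate 2 (adjusted p = 0.239) or CFX replicates 1 or 2 (adjusted p = 0.0667 and 0.291). Among the lower members of these lists were Atp5pb, a subunit of ATP synthase (-0.46 ± 0.08, adjusted p = 8.98e-05), and the ribosomal proteins Rplp0 (-0.40 ± 0.09, adjusted p = 0.00135) and Rpl14 (-0.44 ± 0.10, adjusted p = 0.00275), the last with -0.01 on its second probe set.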

How the data were processed

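CEL files were written by the authors with MAS 5.0 and summarised by RMA in the affy package, whose version is not given in the sources used here. The deposited values are log2 levels of 15866 probe sets on 63 arrays, 1 animal per array, between 3.96 and 15.11, and were used as deposited. The number of arrays limits the precision. Gene names came from the array annotation. Of the probe sets, 12783 had 1 symbol, 312 had several and 2771 had none, and 12748 matched RefSeq (GRCr8) by gene ID. Among probe sets that shared 1 symbol, the one of highest mean across the arrays stood for the gene.

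The fit gave each of the 21 groups its own mean and left 42 residual degrees of freedom. It used limma 3.58.1 under R 4.3.3 and the data.table package, version 1.17.8, with Benjamini-Hochberg adjustment across the whole array. Alternatives changed the arrays in the fit, array weights, the prior, a filter at a mean of 6 log2, scaling, the control arrays, a replicate block and the probe set of a gene, and left out each array. Named genes were the 14 with the highest and the 14 with the lowest difference among called genes whose Nif livers all lay on 1 side of the CFX livers, and up to 4 called members with the largest difference per list; other genes were named to describe a list or a single count. The compounds compared, the 36 gene lists and the rules were chosen with earlier results of these data known. On simulated data made from the Nif and CFX comparison over 15866 probe sets, 99% of differences of 1 log2 and 82% of differences of 0.5 log2 were recovered. Sequences and figures were handled in Python 3.11.15 with pandas 2.3.3, numpy 2.4.6 and matplotlib 3.10.9.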

Additional observations from a re-analysis of the deposited data

How the results depend on the processing

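The count of probe sets called between Nif and CFX was 1324 and stayed within 1.5 times of that with only the 6 arrays compared, with the 9 arrays of Nif, CFX and MC set 2, with trend and robust priors, without dim probe sets, with centred arrays and with quantile normalization. It rose to 2566 with array weights, and leaving out 1 array gave 752 to 1193. Between Nif and MC set 2 the count of 1342 became 2867 with array weights, 2999 against the mean of the 4 methylcellulose sets and 631 to 1144 with 1 array left out. Between CFX and MC set 2 the count of 1 became 0 with only the arrays compared, 0 with the 9 arrays, 0 without dim probe sets, 12 with array weights, 82 against the mean of the 4 methylcellulose sets and 0 to 1 with 1 array left out. The cause of these moves was not tested. Of 25 stellate and matrix markers, 7 were called, 1 was called against MC set 1 in place of CFX, and 6 to 10 were called with 1 array left out, including 6 or 7 of the 7; these settings, the counts of other lists with 1 array left out, the hepatocyte mean without its called members and the settings on the probe sets of a gene were chosen after seeing the data. Requiring every probe set of a gene to be called the same way left 357 higher and 204 lower genes. The mean of all probe sets of a gene gave 399 higher and 358 lower genes, a larger share of lower calls than 452 and 279, and it moved the count of calls by over 1.5 times in 10 of 36 lists. Of 73 named genes 38 kept their call under each of the 14 alternatives in which they were tested, among them 24 of the 28 with the largest differences. Gucy1b1 was not tested without dim probe sets. Of 1021 values, 161 lost the call and 0 changed sign.

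The labels give Nif and CFX animals the same replicate numbers. Residuals of same-numbered animals correlated at 0.204, 0.127 and -0.06, and Nif replicates 1, 2 and 3 correlated best with CFX replicates 1, 3 and 1, so the numbers were not taken as pairs. With the replicate block, on the 6 arrays, 1324 probe sets were called (704 higher and 620 lower), against 1552 on the same 6 arrays without it, and 1152 were called in the same direction by both.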
